A study of Mus musculus with 6 samples.

Results

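The genes described here are 10 mitotic cyclins, kinases and a proliferation marker, *Ccna2*, *Ccnb1*, *Ccnb2*, *Cdk1*, *Aurka*, *Aurkb*, *Plk1*, *Bub1*, *Bub1b* and *Mki67*. They were listed by name for their role in mitosis, with earlier results of these data known, and were found by matching the Ensembl gene identifiers of the deposited tables to GENCODE M21 symbols. All 10 were among the 41388 genes counted, and all 10 were among the 14533 genes that passed the filter on low values and were tested. The libraries came from a study of periostin, a matricellular protein encoded by *Postn*, in joint cartilage. Chondrocytes were released by enzyme from the femoral head cartilage of male mice at 21 days of age and kept in culture for 2 days with no added treatment, and bulk RNA-seq was then done on 3 libraries from *Postn*-/- mice and 3 from *wt* mice. The knockout mice were homozygous for the *Postn* tm1Jmol allele, the *wt* mice carried no targeted allele, and the strain was labelled B6/129 for both (B6129SF2/J in the methods), with littermates bred from heterozygous parents. The knockout allele was present in every cell of the animal rather than in chondrocytes alone, and the cells had been taken out of the joint and plated in serum before RNA was isolated.

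Entry into mitosis is driven by *Cdk1*, a protein kinase that is active only when it is bound by a cyclin. Cyclin A2, encoded by *Ccna2*, is made from the start of DNA replication and is destroyed early in mitosis, whereas cyclins B1 and B2 are made mainly in G2 and are destroyed at anaphase. *Plk1* and the Aurora kinases act beside *Cdk1* to mature the centrosomes, build the spindle and correct the attachment of chromosomes, and *Bub1* and *Bub1b* delay anaphase until every kinetochore is attached. Transcripts of these genes build up in G2 and mitosis and are kept low in resting cells through shared promoter elements, so their level in a bulk culture follows both how many cells are dividing and how much of each transcript a dividing cell holds. In bulk RNA, fewer dividing cells and less RNA per dividing cell cannot be told apart.

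The promoters of the members are shown because these genes are known to be controlled together through the CCAAT box, which is bound by the factor NF-Y, and through the cell cycle genes homology region (CHR), which is bound by the DREAM and MuvB complexes. RefSeq promoter windows on GRCm38.p6 were available here for 8 of the 10 members, and *Ccna2* and *Aurkb* had no entry. The 100 bases before the RefSeq start site are printed for *Ccnb1*, *Ccnb2*, *Cdk1* and *Plk1*, the members whose products form the core of the mitotic kinase machinery, from 5′ to 3′ on the strand of the gene. Capitals mark the letters CCAAT or their reverse complement ATTGG, and for the CHR the letters TTTGAA (reverse complement TTCAAA) and the letters TTTAAA, which are their own reverse complement. Both strands were searched.
Ccnb1: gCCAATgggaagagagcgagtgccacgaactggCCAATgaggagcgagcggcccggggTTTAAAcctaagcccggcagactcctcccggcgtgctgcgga
Ccnb2: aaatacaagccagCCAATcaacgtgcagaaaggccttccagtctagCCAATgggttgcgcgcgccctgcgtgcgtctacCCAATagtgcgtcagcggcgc
Cdk1: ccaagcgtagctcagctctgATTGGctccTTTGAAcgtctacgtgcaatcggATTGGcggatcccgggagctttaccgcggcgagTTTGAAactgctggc
Plk1: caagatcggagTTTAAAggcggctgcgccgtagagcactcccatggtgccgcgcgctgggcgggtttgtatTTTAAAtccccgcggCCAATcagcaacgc
The *Ccnb1* stretch lay at chr13:100786487-100786586 on the minus strand. The *Ccnb2* stretch lay at chr9:70421555-70421654 on the minus strand. The *Cdk1* stretch lay at chr10:69352913-69353012 on the minus strand, and the *Plk1* stretch at chr7:122159335-122159434 on the plus strand.

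Both kinds of letters were frequent in the member promoters. In the whole window of 300 bases, which runs from 250 bases before the start site to 50 after it, the CCAAT letters were found in 8 of 8 members, and in 37.4% of 32851 RefSeq promoter windows of the same length. The CHR letters were found in 7 of 8 members, with *Bub1* as the exception, and in 27.6% of all windows. Within the 100 bases before the start site the CCAAT letters were in 6 of 8 members against 18.9% of all promoters, and the CHR letters in 4 of 8 members, *Ccnb1*, *Cdk1*, *Plk1* and *Mki67*, against 9.71%. Box centres lay at similar distances in several members, 32 bases apart in *Ccnb1* and *Aurka* and 33 and 33 bases apart in *Ccnb2*. They were 32 bases apart for the pair of boxes of *Cdk1* nearest the start site, whose other box lay 128 bases upstream of that pair. Spacings of 26 bases in *Bub1* and of 22 and 25 bases in *Mki67* were closer. In *Ccnb1* the CHR letters were centred at -39.5 bases from the start site, downstream of both boxes, whereas in *Cdk1* one CHR match lay between its boxes and a second followed them. A match of these letters is a description of the sequence and was not tested for binding.

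**Figure D1:**
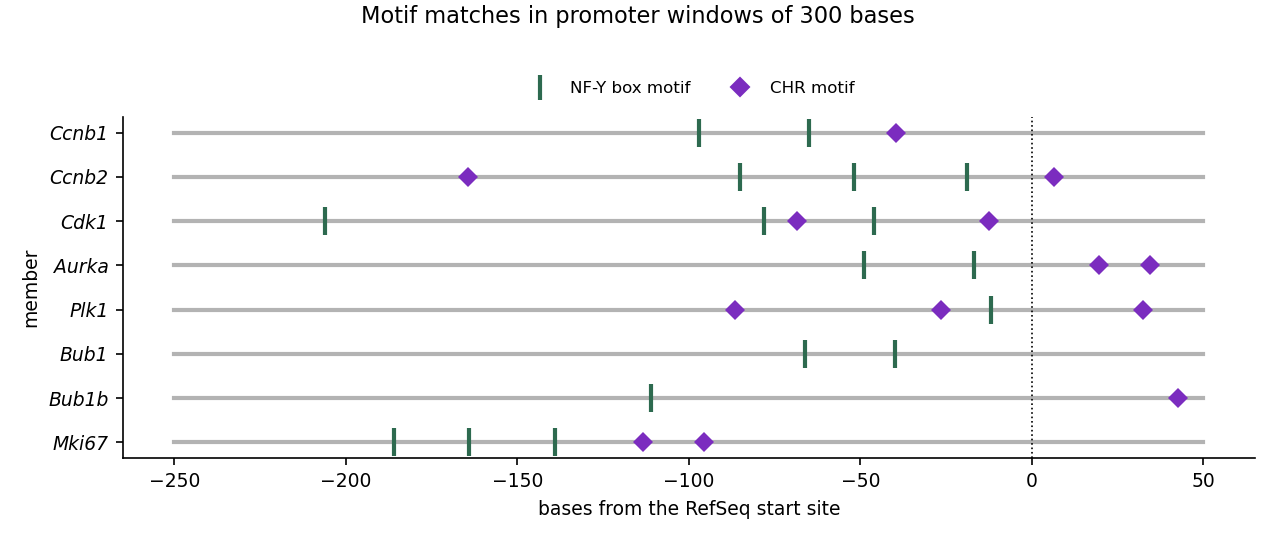
Positions of motif letters in the RefSeq promoter windows of 8 members, in bases from the start site (dotted line). Green bars mark CCAAT letters (NF-Y box) and purple diamonds mark CHR letters on either strand. Boxes 32 or 33 bases apart can be seen in *Ccnb1*, *Ccnb2* and *Aurka* and for the *Cdk1* pair nearest the start site. *Bub1* lacks CHR letters.

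Levels are given as CPM, read counts scaled to a common library size, after TMM normalization for differences in composition. Library totals ran from 20587640 to 26572260 counts, at which a count of 3 is worth 0.113 to 0.146 CPM, so every member was far above the counting floor in every library. *Postn* itself was 4.66, 4.27 and 5.67 CPM in *Postn*-/- replicates 1, 2 and 3 and 10.1, 10.3 and 6.90 CPM in the *wt* replicates. *Postn* was therefore lower in each *Postn*-/- library than in each *wt* library, with a log2 fold change of -0.91 (SE 0.22) and an adjusted p of 0.717 in edgeR's quasi-likelihood test, and a count over the whole gene does not show which exons the remaining reads came from. Across all genes, 2 of 14533 (0.0138%) passed an adjusted p of 0.05 in either direction. These were *Tm4sf1*, which fell by 6.87 on the log2 scale, and *Dscaml1*, which rose by 2.74, neither of them a member and both named after their values were seen. All edgeR p-values below measure the spread between the libraries as labelled, and an exact permutation test of 3 against 3 libraries cannot give a p under 0.1.

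None of the 10 members passed an adjusted p of 0.05 in edgeR, nor in the alternative fits with DESeq2 and limma, and no member had *Postn*-/- values that lay wholly above or below the *wt* values. The fitted log2 fold change was below 0 for 10 of 10 members, with a median of -0.64, beside 49.2% of all tested genes and a median of 0.00 over all genes. At an unadjusted p of 0.05 only *Ccnb1* was lower, 1 of 10 members against 2.35% of all genes, and no member was higher against 3.95% of all genes. With the same 6 libraries this count was 0 with upper quartile scaling, a filter of 1 CPM in all libraries or a robust fit, beside 2.06%, 2.29% and 2.42% of all genes. It was 3 with limma and sample weights (3.78% of all genes), 4 with DESeq2 (2.7%) and 8 with no filter (2.21%). It was 9 with limma, sample weights and 2 surrogate variables, beside 6.31% of all genes. The methods of the study name this kind of fit without a number of surrogate variables, which was held to at most 2 here. The members were read in the same 6 libraries and share regulation, so 10 estimates of the same sign are not 10 independent observations. Across all genes, 6.57% had every *Postn*-/- library below every *wt* library and 7.03% had every one above, beside 0 of 10 members in either direction. The members' adjusted p ran from 0.717 to 0.991 and their two-sided exact permutation p from 0.2 to 0.9.

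**Figure D2:**
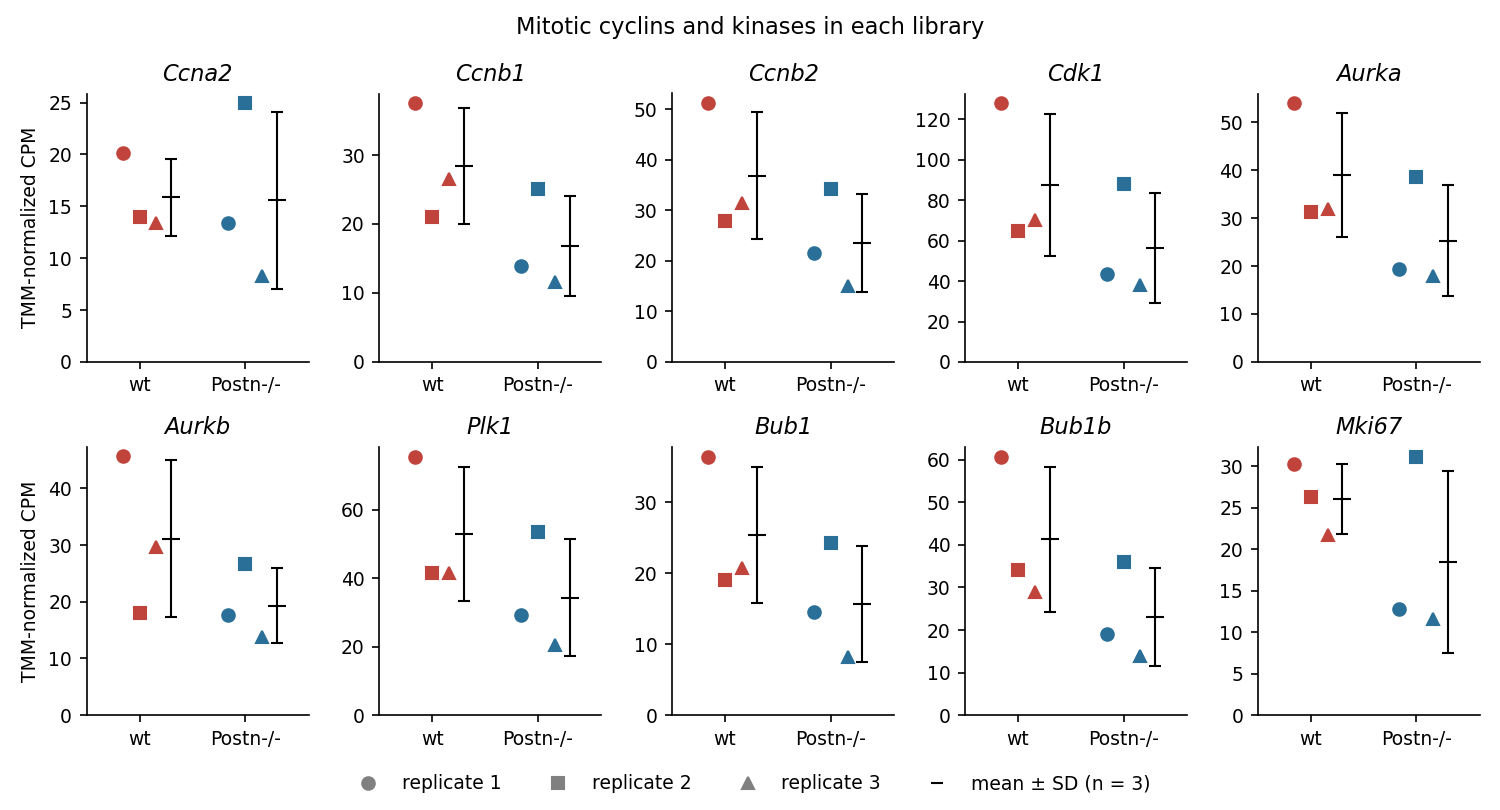
TMM-normalized CPM of each member in each library, with *wt* in red and *Postn*-/- in blue, the replicate number as the shape of the point and the mean ± SD (n = 3) in black. Replicate 1 of *wt* sits at the top for 8 members, and *Postn*-/- replicate 2 sits above *wt* replicates 2 and 3 for all members except *Ccnb1* and *Aurkb*, where *wt* replicate 3 is higher.

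Among the cyclins, *Ccnb1* (ENSMUSG00000041431, chr13:100778650-100786570, minus strand) encodes cyclin B1, the main activating partner of *Cdk1* at mitotic entry. It read 13.9, 25.1 and 11.5 CPM in *Postn*-/- replicates 1, 2 and 3, against 37.5, 21.0 and 26.5 CPM in *wt*. Replicates 1 and 3 of *Postn*-/- lay below every *wt* library, and *Postn*-/- replicate 2 lay between *wt* replicates 2 and 3. The means were 16.8 ± 7.22 in *Postn*-/- and 28.4 ± 8.39 in *wt* (SD, n = 3), and edgeR gave a log2 fold change of -0.75 (SE 0.32, 95% interval -1.49 to -0.01, unadjusted p 0.0467, adjusted p 0.717). Of the stretches of 50 bases in *Ccnb1* transcripts, 23.4% also occur in pseudogenes such as *Ccnb1-ps*, so the count of *Ccnb1* could miss reads from them.

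*Ccnb2* (ENSMUSG00000032218, chr9:70407692-70421547, minus strand) encodes cyclin B2, a second B-type partner of *Cdk1* that is found largely at the Golgi. It read 21.6, 34.1 and 15.1 CPM in *Postn*-/-, against 51.2, 27.9 and 31.5 CPM in *wt*. The order of the libraries was close to that of *Ccnb1*, with *Postn*-/- replicates 1 and 3 lowest and *wt* replicate 1 highest. The log2 fold change was -0.64 (SE 0.33) with an edgeR adjusted p of 0.717, on means of 23.6 ± 9.69 and 36.9 ± 12.6 CPM (SD, n = 3).

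*Ccna2* (ENSMUSG00000027715, chr3:36564865-36572150, minus strand) encodes cyclin A2, which pairs with *Cdk2* in S phase and with *Cdk1* in G2. It read 13.4, 25.0 and 8.29 CPM in *Postn*-/-, against 20.1, 14.0 and 13.4 CPM in *wt*. Its highest library was *Postn*-/- replicate 2, and its lowest was *Postn*-/- replicate 3, so the *wt* values lay inside the *Postn*-/- range. The means were 15.6 ± 8.54 and 15.8 ± 3.73 CPM (SD, n = 3), and the log2 fold change was -0.03 (SE 0.37, 95% interval -0.89 to 0.83) with an edgeR adjusted p of 0.991.

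*Cdk1* (ENSMUSG00000019942, chr10:69335146-69352938, minus strand), the kinase on which the B cyclins act, read 43.6, 87.9 and 38.2 CPM in *Postn*-/-, against 127.9, 64.6 and 70.4 CPM in *wt*. *Postn*-/- replicate 2 was above 2 of the 3 *wt* libraries, and the other 2 *Postn*-/- libraries were below all 3. The means were 56.6 ± 27.3 and 87.6 ± 35.0 CPM (SD, n = 3), with a log2 fold change of -0.63 (SE 0.37, 95% interval -1.48 to 0.22) and an edgeR adjusted p of 0.719.

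Aurora kinase A, encoded by *Aurka* (ENSMUSG00000027496, chr2:172356190-172370535, minus strand), matures the centrosomes and helps to activate *Plk1*. *Aurka* read 19.4, 38.6 and 17.9 CPM in *Postn*-/-, against 54.0, 31.3 and 31.9 CPM in *wt*. Its log2 fold change was -0.63 (SE 0.33) with an edgeR adjusted p of 0.717. *Aurkb* (ENSMUSG00000020897, chr11:69045647-69051664, plus strand) encodes the catalytic subunit of the chromosomal passenger complex, which corrects faulty chromosome attachment. *Aurkb* read 17.6, 26.6 and 13.7 CPM in *Postn*-/-, against 45.7, 18.1 and 29.6 CPM in *wt*. For *Aurkb* *wt* replicate 2 was nearly as low as *Postn*-/- replicate 1, whereas for *Aurka* *wt* replicates 2 and 3 were almost equal. The *Aurkb* log2 fold change was -0.69 (SE 0.35) with an edgeR adjusted p of 0.717.

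*Plk1* (ENSMUSG00000030867, chr7:122159439-122169873, plus strand) encodes the Polo-like kinase that activates Cdc25 and drives spindle assembly and cytokinesis. It read 29.1, 53.4 and 20.4 CPM in *Postn*-/-, against 75.5, 41.7 and 41.6 CPM in *wt*. Replicates 2 and 3 of *wt* were nearly the same, with *Postn*-/- replicate 2 above them and *Postn*-/- replicates 1 and 3 below. The means were 34.3 ± 17.1 and 52.9 ± 19.5 CPM (SD, n = 3), with a log2 fold change of -0.62 (SE 0.37, 95% interval -1.48 to 0.23) and an edgeR adjusted p of 0.720. An annotated gene on the opposite strand, *Gm44985*, shares 7.09% of the exonic bases of *Plk1*, and 10.4% of its stretches of 50 bases also occur in *Gm44985* or *Plk-ps1*. Whether the counting used strand is not given in the sources used here.

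For the checkpoint kinases too, *wt* replicate 1 was highest and *Postn*-/- replicate 3 lowest. *Bub1* (ENSMUSG00000027379, chr2:127801122-127831865, minus strand), which marks unattached kinetochores and recruits other checkpoint proteins, read 14.5, 24.3 and 8.15 CPM in *Postn*-/-, against 36.4, 19.1 and 20.7 CPM in *wt*. *Bub1b* (ENSMUSG00000040084, chr2:118598211-118641591, plus strand) encodes BubR1, a subunit of the mitotic checkpoint complex that inhibits the anaphase-promoting complex. *Bub1b* read 19.1, 36.1 and 14.0 CPM in *Postn*-/-, against 60.6, 34.2 and 29.0 CPM in *wt*. *Bub1b* had the most negative estimate of the 10 members, with a log2 fold change of -0.84 (SE 0.39, 95% interval -1.73 to 0.06), at an unadjusted p of 0.0628 (edgeR adjusted p 0.717). The estimate for *Bub1* was -0.70 (SE 0.40) with an edgeR adjusted p of 0.719.

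*Mki67* (ENSMUSG00000031004, chr7:135689784-135716361, minus strand) encodes Ki-67, which coats mitotic chromosomes and is widely used as a marker of cycling cells. It read 12.8, 31.2 and 11.6 CPM in *Postn*-/-, against 30.3, 26.3 and 21.8 CPM in *wt*. *Postn*-/- replicate 2 was its highest library, just above *wt* replicate 1, and the other *Postn*-/- libraries were below all 3 *wt* libraries. The log2 fold change was -0.49 (SE 0.36) with an edgeR adjusted p of 0.750.

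**Figure D3:**
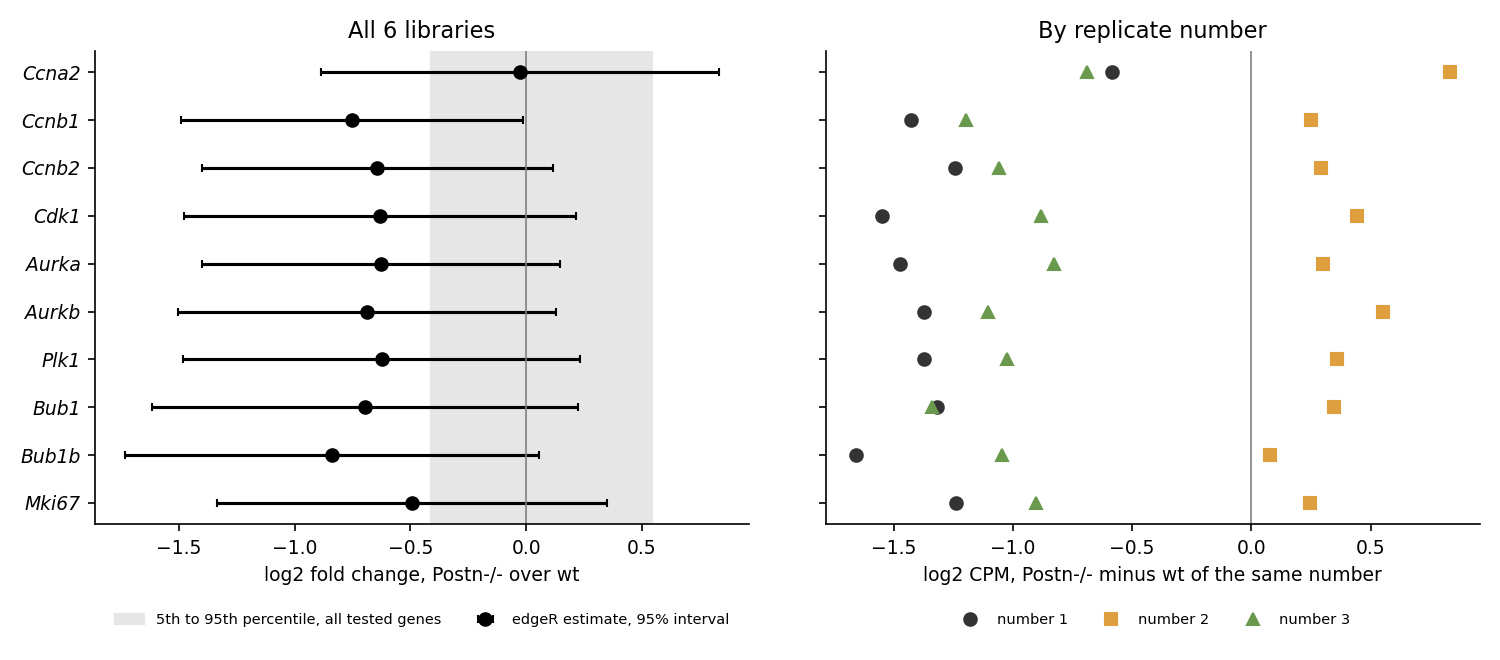
Left, edgeR log2 fold change of *Postn*-/- over *wt* for each member with its 95% interval, over a grey band from the 5th to the 95th percentile of all tested genes (-0.41 to 0.54). Right, the log2 CPM of each *Postn*-/- library minus that of the *wt* library of the same replicate number, where numbers 1 and 3 lie below 0 and number 2 above 0 for all 10 members.

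The comparison was also made by replicate number, since the labels number the libraries 1 to 3 in both genotypes. For number 1, *Postn*-/- was below *wt* for 10 of 10 members, by log2 differences of -1.66 for *Bub1b* to -0.58 for *Ccna2* with a median of -1.37. For number 3 it was again below for 10 of 10, from -1.34 for *Bub1* to -0.69 for *Ccna2* with a median of -1.04. For number 2 it was above for 10 of 10, from 0.08 for *Bub1b* to 0.83 for *Ccna2* with a median of 0.32. Across all tested genes *Postn*-/- was below *wt* for 47.7%, 49.0% and 50.2% of genes for numbers 1, 2 and 3. The sign of the difference therefore turned with the replicate number for every member, and whether equal numbers mark libraries prepared together is not stated.

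The members varied widely between single libraries. The highest library was 2.68 to 4.43 times the lowest for the individual members, with a median of 3.33, whereas the median over all tested genes was 1.56. A span of at least 2-fold was seen in 10 of 10 members and in 25.7% of all tested genes. *Postn*-/- replicate 3 was the lowest library for all 10 members, and *wt* replicate 1 was the highest for 8, with *Postn*-/- replicate 2 highest for *Ccna2* and *Mki67*. The 10 members summed to 205.2, 382.2 and 158.9 CPM in *Postn*-/- and to 539.2, 298.1 and 316.5 CPM in *wt*. These sums were 0.0198%, 0.0387% and 0.0162% of the counts in *Postn*-/- and 0.0528%, 0.0294% and 0.0320% in *wt*. The mean of the members' log2 CPM, each centred on its own mean over 6 libraries, differed by -0.65 (*Postn*-/- minus *wt*), beside an SD of 0.66 among the *Postn*-/- libraries and 0.45 among the *wt* libraries.

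Without *Postn*-/- replicate 2, the library that stood apart from the other *Postn*-/- libraries, 9 of 10 members were lower at an unadjusted p of 0.05 in edgeR, beside 3.81% of all genes, but none passed adjustment. In this refit of 5 libraries every remaining *Postn*-/- library lay below every *wt* library for 10 of 10 members, beside 13.7% of all genes. The median log2 fold change was -1.10. For *Ccna2* the margin was very narrow. With the scaling of all 6 libraries it read 13.421 CPM in *Postn*-/- replicate 1 and 13.417 CPM in *wt* replicate 3, an overlap. *Postn*-/- replicate 2 was singled out here for the level of the members, so these counts are a description. Without *wt* replicate 1, the highest library, 0 of 10 were lower at an unadjusted p of 0.05, beside 1.96% of all genes, and the median was -0.32. Leaving out *Postn*-/- replicate 1 or 3 also gave 0 of 10, beside 2.02% and 0.849% of all genes. Leaving out *wt* replicate 2 gave 2 of 10 (3.45% of all genes) and leaving out *wt* replicate 3 gave 1 of 10 (2.31%). The count at an unadjusted p therefore moved with single libraries in either group, as it did with the fit and the filter.

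Levels were compared between members per kilobase of exon, as TMM-normalized CPM per kb averaged over 6 libraries, with the deposited gene lengths. *Cdk1* was highest at 20.9 ± 9.53, followed by *Plk1* at 19.8 ± 8.77 and *Ccnb2* at 19.6 ± 8.04 (SD, n = 6). These leading members did not differ beyond their spread, *Cdk1* being above *Plk1* in 4 of 6 libraries and *Plk1* above *Ccnb2* in 3 of 6. *Aurka* at 12.7 ± 5.25 was below *Ccnb2* and above *Aurkb* at 8.56 ± 3.96 in 6 of 6 libraries. *Bub1b* at 7.52 ± 3.82 was below *Aurkb* in 5 of 6 libraries and above *Ccnb1* at 5.36 ± 2.24 in 6 of 6. *Bub1* at 4.72 ± 2.20 was below *Ccnb1* in 5 of 6 libraries and above *Ccna2* at 4.47 ± 1.68 in 3 of 6, and *Mki67*, with the longest exons at 10075 bases, was lowest at 2.21 ± 0.847 and was below *Ccna2* in 6 of 6. The place of *Cdk1* rests on its deposited length of 3445 bases: with its 4934 exonic bases in GENCODE M21, a length tried after seeing the data, it was at 14.6 ± 6.65, below *Plk1* and *Ccnb2*, and the order of the other 9 members was as before. The SDs hold the shared movement of the libraries, so the count of libraries is the closer comparison of neighbours.

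Ratios between members within a library do not depend on how the library was scaled. Of the 45 pairs of members, 9 (20%) had ratios that did not overlap between *Postn*-/- and *wt*, and 8 of these 9 pairs contained *Ccna2*. The only such pair among the 36 without *Ccna2* was *Plk1* over *Bub1b*. Pairs that share *Ccna2* are not independent, and the share over pairs of all genes is not given here. Of all single genes, 6.57% had every *Postn*-/- library below every *wt* library and 7.03% had every one above. Relative to the mean log2 CPM of the other 9 members, *Ccna2* lay at -0.56, -0.54 and -0.88 in *Postn*-/-, against -1.38, -1.06 and -1.23 in *wt*. *Ccna2* was thus nearer the other members in every *Postn*-/- library than in any *wt* library, by 0.56 on the log2 scale, and was the only one of the 10 whose relative level did not overlap. A count of 1 of 10 is near the shares of single genes above, taken in both directions, and is not read as a result. Those shares are of levels and not of relative levels. *Ccna2* was singled out after its values were seen and the difference carries no test. A further 104 mitotic genes were set against the mean log2 CPM of all 10 members, with *Ccna2* included. Of these, 7 (6.73%) did not overlap. *Mad2l1*, *Incenp*, *Cenpa* and *Spc25* were relatively higher in *Postn*-/- by up to 0.30. *Kif4*, *Kif15* and *Top2a* were relatively lower, at the most by a log2 difference of -0.46. Relative differences above the 0.56 of *Ccna2* were seen in 14 of the 104 genes, up to 0.78 for *Pkmyt1*, but their groups overlapped. The reference for *Ccna2* was the other 9 members, so the 14 are not a like comparison and do not rank *Ccna2* among these genes.

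One feature of the annotation sits beside the relative level of *Ccna2*. The exons of *Ccna2* share 510 bases, 12.5% of their length, with *Exosc9*, an RNA exosome gene on the opposite strand. *Exosc9* read 40.3, 39.3 and 48.2 CPM in *Postn*-/-, against 57.9, 52.9 and 52.2 CPM in *wt*, with a log2 fold change of -0.35 (SE 0.12) and an edgeR adjusted p of 0.717. *Exosc9* was thus lower in every *Postn*-/- library, and its level varied 1.47-fold between libraries where that of *Ccna2* varied 2.99-fold. The part of shared bases in the relative level of *Ccna2* was not tested.

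**Figure D4:**
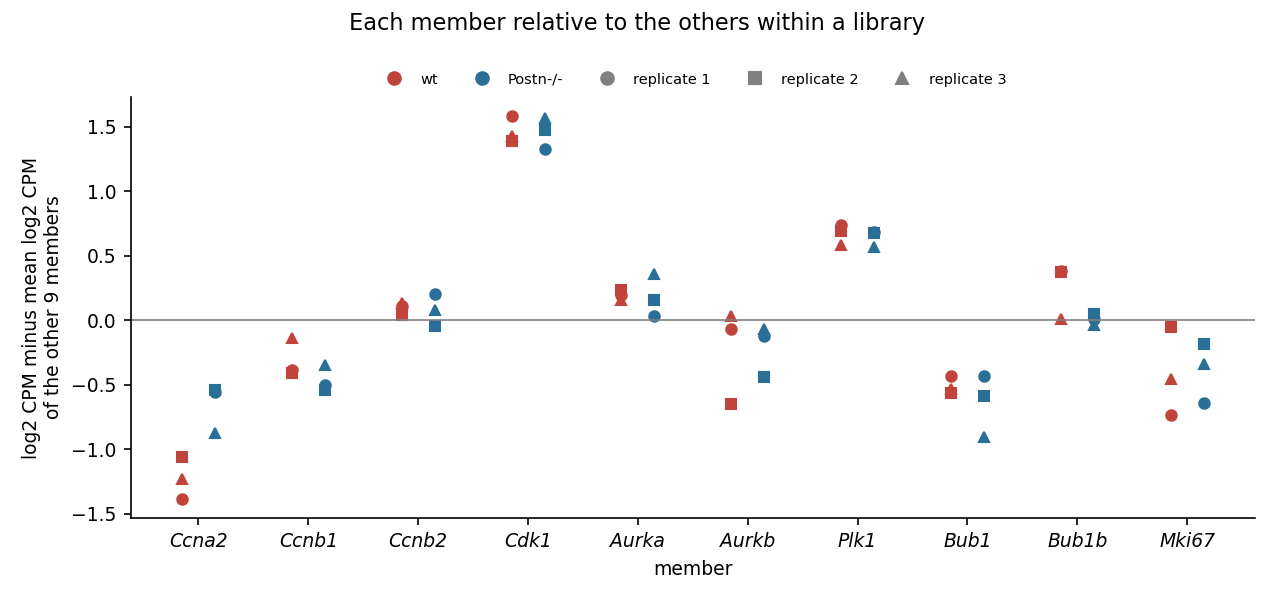
Log2 CPM of each member minus the mean log2 CPM of the other 9 members in the same library, with *wt* in red, *Postn*-/- in blue and the replicate number as the shape of the point. *Ccna2* lies at -0.88 to -0.54 in *Postn*-/- and at -1.38 to -1.06 in *wt*, while the groups overlap for the other 9 members.

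The genes with profiles most like the members were found by the root mean square distance between centred log2 CPM over the 6 libraries and the mean profile of the 10 members. The nearest was *Hmmr*, which encodes a spindle-associated hyaluronan receptor, at a distance of 0.03 log2 units. It was followed by *Cdca3*, a trigger of mitotic entry, at 0.05, by *Plk1* itself at 0.05, by *Birc5* at 0.05 and by *Cdca8* at 0.06, where *Birc5* and *Cdca8* encode survivin and borealin of the chromosomal passenger complex. The median distance over all tested genes was 0.61. *Hmmr* read 22.6, 42.7 and 16.6 CPM in *Postn*-/-, against 58.0, 33.0 and 35.7 CPM in *wt*, with *wt* replicate 1 and *Postn*-/- replicate 2 highest and *Postn*-/- replicate 3 lowest, as in *Plk1*. The member farthest from the mean profile was *Ccna2* at 0.28, followed by *Aurkb* at 0.22 and *Mki67* at 0.21.

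The wider mitotic machinery was described with 8 gene lists that hold 104 tested genes outside the members. Of all tested genes, 49.2% had a fitted fold change below 1, with a median log2 fold change of 0.00. Of the 104 genes, 96 were below 1 and 8 above, with a median of -0.52. None passed an adjusted p of 0.05 in edgeR, 7 were lower at an unadjusted p of 0.05, beside 2.35% of all genes, and none was higher. For 7 of the 104 every *Postn*-/- library lay below every *wt* library, close to the 6.57% of all genes that did so. The count at an unadjusted p became 60 without *Postn*-/- replicate 2 (3.81% of all genes) and 25 without *wt* replicate 2 (3.45%). It became 1 without *Postn*-/- replicate 1 (2.02% of all genes), *Postn*-/- replicate 3 (0.849%) or *wt* replicate 1 (1.96%). With single libraries left out, the median ran from -0.78 to -0.21. These genes are not independent of the members, since their levels follow the same libraries.

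Regulators of mitotic entry, which include activators and inhibitors of *Cdk1*, had 14 of 16 genes below 1 and a median of -0.52. The 2 above 1 were *Wee1* and *Pkmyt1*, with log2 fold changes of 0.06 (SE 0.22) and 0.10 (SE 0.23). *Mastl*, the Greatwall kinase that restrains the phosphatase opposing *Cdk1*, read 6.43, 10.1 and 7.43 CPM in *Postn*-/-, against 19.0, 8.60 and 13.7 CPM in *wt*, with a log2 fold change of -0.78 (SE 0.30), at an unadjusted p of 0.0332 (edgeR adjusted p 0.717). Its substrate *Ensa*, the most abundant of the list per length, had a log2 fold change of -0.12 (SE 0.15). Factors that transcribe the G2/M genes had 5 of 7 genes below 1 and a median of -0.15. Among them the MuvB subunit *Lin9* was at -0.63 (SE 0.33) and the histone chaperone *Rbbp4* at 0.06 (SE 0.11).

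The anaphase-promoting complex with securin and separase, the machinery that destroys the cyclins and opens cohesin, had 17 of 21 genes below 1 and a median of -0.17. *Anapc13* read 41.5, 44.7 and 44.9 CPM in *Postn*-/-, against 61.9, 51.4 and 50.5 CPM in *wt*, without overlap, with a log2 fold change of -0.32 (SE 0.11) and an edgeR adjusted p of 0.717. The core subunit *Anapc5* was at 0.12 (SE 0.11). The mean of this list spanned -0.27 to 0.26 on the centred log2 scale over the 6 libraries, beside -0.89 to 0.84 for the members.

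Spindle checkpoint genes were below 1 in 11 of 11 and had a median of -0.37. *Zwilch*, which helps to place checkpoint proteins at kinetochores, had a log2 fold change of -0.58 (SE 0.25) and *Bub3*, the partner of *Bub1* and *Bub1b*, of -0.21 (SE 0.13). The chromosomal passenger complex list holds *Incenp*, *Birc5* and *Cdca8* and, beside these subunits, *Haspin*, *Sgo1* and *Sgo2a*. Its genes were below 1 in 6 of 6 with a median of -0.64. *Cdca8* read 34.0, 61.8 and 27.6 CPM in *Postn*-/-, against 90.4, 53.0 and 55.6 CPM in *wt*. Mitotic kinesins and cytokinesis genes were below 1 in 17 of 17 with the most negative list median, -0.69. *Kif15* was at -0.90 (SE 0.39) and *Kif20a*, a motor of the cleavage furrow, at -0.80 (SE 0.40), each with an edgeR adjusted p of 0.717.

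Kinetochore genes were below 1 in 17 of 17, with a median of -0.65. *Ska2*, which couples kinetochores to microtubules, read 22.3, 23.5 and 21.1 CPM in *Postn*-/-, against 41.4, 27.3 and 28.2 CPM in *wt*. The groups did not overlap for *Ska2*, with a log2 fold change of -0.54 (SE 0.18), at an unadjusted p of 0.0160 (edgeR adjusted p 0.717), and *Pmf1* was at -0.38 (SE 0.18). Condensin and chromosome structure genes were below 1 in 9 of 9 with a median of -0.61, where the condensin subunits *Ncapd2* and *Ncaph2* were at -0.78 (SE 0.31) and -0.24 (SE 0.11).

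Genes outside mitosis were read in the same way. Replication licensing genes, which prepare origins in G1, were below 1 in 11 of 11 with a median of -0.61, and their inhibitor *Gmnn* was at -0.76 (SE 0.30) with no overlap between groups, while *Orc6* was at -0.32 (SE 0.18). G1 cyclins and CDK inhibitors were below 1 in 10 of 13 tested genes with a median of -0.32, with *Cdkn1b*, an inhibitor of cyclin-*Cdk2*, at -0.41 (SE 0.16) and *Ccnd2*, the most abundant D-type cyclin, at -0.04 (SE 0.20). Of 9 relatives of the members, 5 were tested, with *Ccnf* at -0.61 (SE 0.37) and *Plk2* at 0.37 (SE 0.37). The germline cyclins *Ccna1* and *Ccnb3* and the kinases *Aurkc* and *Plk5* were under 1 CPM in every library. No gene of these 3 lists passed an adjusted p of 0.05 in edgeR. With single libraries left out, list medians stayed below 0. Those of the kinesins (-1.06 to -0.34), kinetochore (-0.93 to -0.31), passenger complex (-1.06 to -0.27) and replication licensing (-0.86 to -0.13) moved widely. So did those of the G1 list (-0.46 to -0.06) and the relatives (-0.48 to -0.04). The anaphase-promoting list moved little, from -0.17 to -0.12. The list counts lower at an unadjusted p also moved, where 0.849% to 3.81% of all genes were lower. They ran from 0 to 15 of 17 kinesins, 0 to 14 of 17 kinetochore genes and 0 to 8 of 16 entry regulators. They ran from 0 to 7 of 11 checkpoint genes and 0 to 6 of 11 licensing genes. The counts of these 5 lists were highest without *wt* replicate 2 for licensing and without *Postn*-/- replicate 2 for the others.

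**Figure D5:**
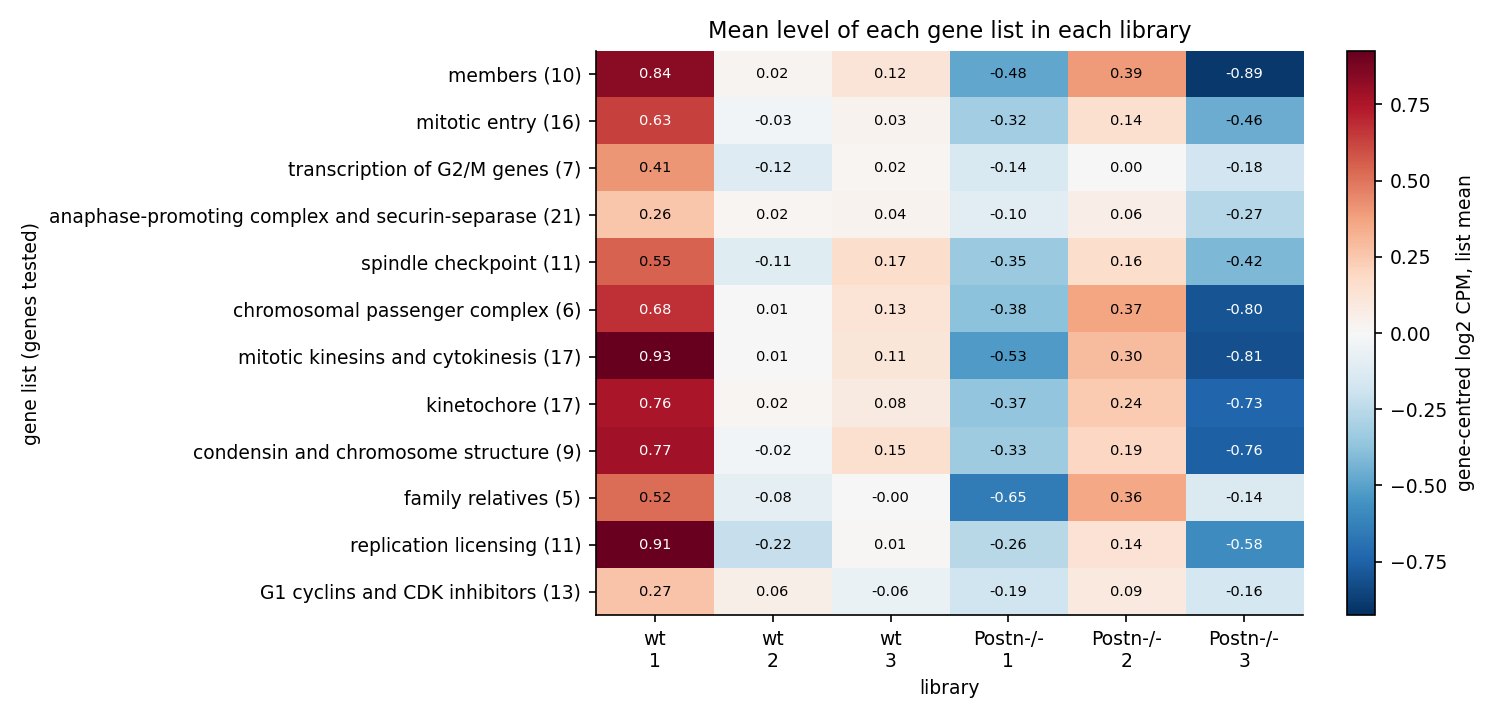
Mean of gene-centred log2 CPM for the 10 members and 11 gene lists in each library, with the number of tested genes in brackets. Replicate 1 of *wt* is highest in all of them, *Postn*-/- replicate 3 is lowest in all but the family relatives and the G1 list, where *Postn*-/- replicate 1 is lowest, and the members span -0.89 to 0.84.

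Markers of other cell types and of chondrocytes were summed in each library to show what moved beside the members. Chondrocyte markers, 13 genes of which none was under 1 CPM in all libraries, summed to 48345, 36335 and 47240 CPM in *Postn*-/- and to 30345, 44050 and 37903 CPM in *wt*. The sum was lowest in *wt* replicate 1, where 8 members were highest, and it was higher in *Postn*-/- replicates 1 and 3 than in replicate 2. Not every marker followed the sum. *Col11a1*, *Matn1*, *Matn3*, *Hapln1* and *Cnmd* were lowest in *Postn*-/- replicate 2, and the other markers in *wt* replicate 1. Of the 13 genes, 9 had a fitted fold change above 1, beside 7376 of all 14533 genes, and 3 of them at an unadjusted p of 0.05, beside 3.95% of all genes. The other 4, *Matn1*, *Col11a1*, *Hapln1* and *Cnmd*, were below 1, and *Cnmd* was lower in every *Postn*-/- library than in every *wt* library. For *Col2a1* and *Col9a3* every *Postn*-/- library lay above every *wt* library. *Col2a1*, the gene of type II collagen, made up the largest part of the sum, at 13696 to 18081 CPM in *Postn*-/- and 8271 to 11867 CPM in *wt*, and *Col9a3*, a chain of type IX collagen, ran from 803 to 1260 and from 293 to 707 CPM. None of the 13 passed an adjusted p of 0.05 in edgeR. The part of these differences in the level of the members was not tested. Fibroblast markers ran from 1758 to 3289 CPM in *Postn*-/- and from 1910 to 4446 CPM in *wt*, and osteoblast markers from 470 to 705 and from 348 to 1138 CPM. Macrophage and osteoclast markers ran from 56.3 to 79.0 and from 41.2 to 64.2 CPM, endothelial markers from 6.83 to 11.3 and from 5.15 to 9.68 CPM, and muscle markers from 16.9 to 17.8 and from 19.2 to 28.1 CPM. All 7 erythroid markers were under 1 CPM in every library.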

How the data were processed

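The authors aligned single-end reads with STAR 2.0.4b and assigned reads with a single alignment and a single gene to genes in featureCounts 1.4.5, per the paper's methods and the submitters' processing notes. The deposited tables hold a raw count per gene and library, a CPM that the authors scaled to the library total, and an RPKM that the authors also divided by gene length. The labels name mm9, but 87.8% of matched genes start or end at their GRCm38 position in GENCODE M21, so GRCm38 was used. Of 41388 identifiers, 97.5% matched a symbol.

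Counts were analysed in edgeR 4.0.16 (R 4.3.3): 355 ribosomal genes were left out, genes above 1 CPM in at least 2 libraries were kept, libraries were scaled by TMM, and genotype was tested by the quasi-likelihood F-test with Benjamini-Hochberg adjustment over 14533 genes. Log2 CPM for profiles and for differences by replicate number used a prior count of 2. The deposited CPM and RPKM were recomputed from the counts as a check and were not tested. Library totals were 20587640 to 26572260 counts. The floor of 3 counts covers counting error only. The labels give 3 libraries per genotype. No pair of libraries agreed within sampling noise, with chi-square per degree of freedom of at least 26.5. The test was also run on simulated data, and the outcome of that run is not given here.

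The members and gene lists were chosen with earlier results of these data known. The named genes are the members, in each list the genes past an adjusted p of 0.05 or otherwise the one with the lowest p and the one with the highest *wt* level per length, the 5 genes nearest in profile, and *Postn*. Other genes were named after their values were seen. Alternatives were upper quartile scaling, DESeq2 1.42.0, limma 3.58.1 with sample weights, the same with surrogate variables (sva 3.50.0), other filters, a robust fit, a replicate block and each library left out. Promoter windows came from RefSeq on GRCm38.p6.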

Additional observations from a re-analysis of the deposited data

How the results depend on the processing

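No member passed an adjusted p of 0.05 under any of the 15 alternatives, where the members' adjusted p ran from 0.249 to 0.999. Of 634 alternative values for 52 results, the levels per length included, 511 kept their direction and their side of the threshold or their size. *Ccna2* alone reversed, to a log2 fold change of 0.07 without *Postn*-/- replicate 1, 0.27 without *Postn*-/- replicate 3 and 0.19 without *wt* replicate 1, in a range of -0.55 to 0.27 over single libraries left out. The count of members lower at an unadjusted p of 0.05, which was 1, became 0 with upper quartile scaling, with genes above 1 CPM in all libraries and with the robust fit. It became 3 with limma sample weights, 4 with DESeq2, 8 with no filter and 9 with surrogate variables added, where 3.78%, 2.7%, 2.21% and 6.31% of all genes were lower. It ran from 0 to 9 when single libraries were left out, with 9 without *Postn*-/- replicate 2, 2 without *wt* replicate 2, and 0 without *Postn*-/- replicate 1, *Postn*-/- replicate 3 or *wt* replicate 1. Over all genes, 916 passed an unadjusted p of 0.05, 873 with DESeq2, 1337 with limma sample weights, 1797 with no filter, 1997 with surrogate variables, and 425 to 1257 when single libraries were left out, the lowest without *Postn*-/- replicate 3. The 2 genes past an adjusted p of 0.05 became 0 with genes above 1 CPM in all libraries, 1 with upper quartile scaling or limma sample weights, 4 with surrogate variables, 9 with no filter and 11 with DESeq2, and ran from 1 to 2 when single libraries were left out. The cause of these shifts was not tested.

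The correlation of same-numbered libraries' deviations was 0.0824, 0.155 and 0.143, and that of unlike numbers ran from -0.13 to 0.0143. The main fit did not treat equal numbers as pairs. These correlations do not settle whether equal numbers mark libraries prepared together. Every library correlated best with its own number. With a replicate block, 1188 genes passed an unadjusted p and 1 an adjusted p of 0.05. The depth was ample for the members, and the precision is limited by 3 libraries per group and their spread.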

Other observations

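Some genes that are no members are given here as values, chosen after their values were seen. *Cdkn1a*, which encodes the cyclin-Cdk inhibitor p21, was at 416, 528 and 786 CPM in *Postn*-/- replicates 1, 2 and 3 and 358, 559 and 483 CPM in the *wt* replicates. It was thus highest in *Postn*-/- replicate 3, where all 10 mitotic members were lowest, and lowest in *wt* replicate 1, where 8 of them were highest. It was not the mirror of the members in every library, being second lowest in *Postn*-/- replicate 1, where the members also summed to their second lowest level. Other tested CDK inhibitors did not share its order. *Cdkn1b*, *Cdkn2c* and *Cdkn2d* were each highest in *wt* replicate 1 and lowest in *Postn*-/- replicate 3. *Cdkn1c* was highest in *wt* replicate 2 and lowest in *wt* replicate 3, and *Cdkn2b* was highest in *Postn*-/- replicate 2 and lowest in *Postn*-/- replicate 3. The log2 fold change of *Cdkn1a* was 0.30 (SE 0.25) with an edgeR adjusted p of 0.770. *Itga11*, which encodes a subunit of a collagen-binding integrin, was among the 30 genes nearest in profile to the members, at rank 24. It was at 31.8, 66.1 and 24.6 CPM in *Postn*-/- and 81.7, 45.5 and 42.1 CPM in *wt*.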
